A study of Homo sapiens with 47 samples.

Results

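The 35 genes described here encode aminoacyl-tRNA synthetases, the enzymes that join each amino acid to its tRNA. They were taken by gene name from the 62703 genes listed in both deposited RNA tables: 19 encode cytosolic enzymes and 16 encode mitochondrial ones. The human prostate cancer cell line PC3, which was derived from a bone metastasis and lacks the androgen receptor program, carried an empty vector, a vector for DDC or a vector for SLC6A4. The product of DDC is aromatic amino acid decarboxylase, which makes serotonin from its precursor, that of SLC6A4 takes serotonin up into the cell, and no further agent is named for the RNA and ChIP samples. RNA was sequenced in 3 libraries of each line, and chromatin immunoprecipitation (ChIP) was done in 3 libraries of each line for trimethylated lysine 4 of histone H3 (H3K4me3) and for the same mark with serotonin on the neighbouring glutamine (H3K4me3Q5ser). Input DNA was used in 3 libraries each of empty-vector and DDC cells. H3K4me3 was also profiled by CUT&Tag in 1 library each of control, SLC6A4 and SLC6A4 cells with a TGM2 short hairpin. The labels do not say whether each line was 1 clone or whether replicates were separate cultures, so the p-values measure the spread between these libraries, which may be technical.

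A synthetase first activates its amino acid with ATP and then transfers it to the end of the matching tRNA, so the family supplies the substrate of every round of translation. Most cytosolic enzymes are encoded apart from their mitochondrial counterparts, which are made in the cytosol and imported, while GARS1 and KARS1 serve both compartments from 1 gene. Several cytosolic enzymes (EPRS1, IARS1, KARS1, LARS1, MARS1, QARS1 and RARS1 among the genes here) sit in the multi-synthetase complex on the scaffold proteins AIMP1, AIMP2 and EEF1E1. Many cytosolic synthetase genes are targets of ATF4, the transcription factor whose translation rises when amino acids run short or the endoplasmic reticulum is stressed, and ATF4 binds composite C/EBP-ATF elements. H3K4me3 marks active promoters, and the transglutaminase TGM2 can attach serotonin beside it.

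Because ATF4 acts through such elements, the promoter windows of the synthetase genes were searched on both strands for TGATGNAA and for its stricter form TGATGCAA. RefSeq windows (GRCh38.p14, 250 bases before to 50 after each start) were found for 30 of the 35 genes, 16 cytosolic and 14 mitochondrial. Counted per gene, since a gene can have more than 1 window, TGATGNAA occurred in 8 of the 30 (26.7%) and in 4.46% of the 27305 genes with a window in the whole table. TGATGCAA, contained in it, occurred in 6 of the 30 (20%), all 6 cytosolic, and in 1.08% of all genes with a window. The 6 sites are shown with 11 bases on each side on the gene's strand, the match in capitals, as TGATGCAA or its reverse complement.
AARS1, chr16:70289675-70289704, minus strand: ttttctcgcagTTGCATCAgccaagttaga
CARS1, chr11:3057407-3057436, minus strand: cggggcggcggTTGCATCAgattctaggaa
IARS1, chr9:92293692-92293721, minus strand: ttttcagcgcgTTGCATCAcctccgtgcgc
MARS1, chr12:57488053-57488082, plus strand: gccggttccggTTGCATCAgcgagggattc
NARS1, chr18:57621804-57621833, minus strand: tctacgctctcTGATGCAAcgccggaatcg
TARS1, chr5:33440956-33440985, plus strand: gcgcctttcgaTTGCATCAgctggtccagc
All 6 also stand on the list of synthetases known as ATF4 targets used below. A match is a description of these letters and not a shown binding site.

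HARS1, the cytosolic histidine enzyme, and HARS2, its mitochondrial counterpart, are transcribed away from each other from a shared stretch on chromosome 5, and HARS1 had the largest RNA difference of the family in the DDC line. The 84 bases between the RefSeq starts are shown on the plus strand, with HARS1 to the left, and the capitals mark CCGGAAGT, the core bound by ETS factors, or its reverse complement.
HARS1 to HARS2, chr5:140691371-140691454, plus strand: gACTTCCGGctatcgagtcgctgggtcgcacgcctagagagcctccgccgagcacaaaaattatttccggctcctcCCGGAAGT
One copy lay beside each start. CCGGAAGT, a motif chosen after the values were seen, was present in the windows of 8 of the 30 genes (26.7%) and of 4.95% of all genes with a window. The 8 were CARS1, EARS2, HARS1, HARS2, NARS1, PARS2, TARS1 and WARS1. HARS1 and HARS2 are both counted by the same sites, those of the stretch shown above, so they are not separate finds.

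The RNA libraries held 17284019 to 21745703 reads in genes. DDC itself was at 23.9 to 30.8 normalised reads in its own line and at 0 to 2.79 in the other 6 libraries, and SLC6A4 was at 87.4 to 129.5 in its own line and at 0 to 1.10 elsewhere. All 5 genes taken as PC3 markers (the epithelial keratins KRT8, KRT18 and KRT19, the mesenchymal filament gene VIM and CD44) were detected in every line, with summed levels of 29026 to 34738 with the empty vector, 20057 to 23662 in DDC and 27980 to 29860 in SLC6A4. They did not move together: KRT8, KRT18, KRT19 and CD44 fell in DDC, and in SLC6A4 KRT18 and KRT19 fell while VIM rose, from a mean of 2112 to 2726. The part of this in the results was not tested. The leukocyte markers PTPRC and CD3E and the endothelial markers VWF and CDH5 were at or near 0 in all 3 lines. KLK3 was at 0. The other leukocyte marker, CD68, had means of 132.8 with the empty vector, 154.7 in DDC and 118.1 in SLC6A4. It was called (adjusted p under 0.05 by limma) only between the lines, higher in DDC by 0.38 on the log2 scale. The fibroblast marker COL1A1 had a mean of 42.3 with the empty vector and was called lower in DDC (-1.64) and in SLC6A4 (-0.99). The part of CD68 and COL1A1 in the results was not tested. The endothelial list, nearly all of it PECAM1, summed to 211 to 235 with the empty vector, 66.6 to 87.3 in DDC and 34.4 to 51.7 in SLC6A4, and its part in the results was not tested. The first principal component (32.4% of the variance) set the controls apart from both overexpressing lines. In bulk RNA, fewer cells of a kind and less RNA per cell cannot be told apart.

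In PC3 cells the cytosolic synthetase genes were expressed above the mitochondrial ones. Levels between genes are compared as normalised reads per kb of each gene's canonical transcript, on a scale shared by the 9 libraries. The median was 231 per kb over the 19 cytosolic genes and 22.97 over the 16 mitochondrial genes, beside 21.9 over 11185 tested protein-coding genes. All 19 cytosolic genes and 8 of the 16 mitochondrial genes lay above that last value. Per kb of all annotated exons together, the medians were 120 and 12.8, beside 13.8 over the coding genes. On that length the cytosolic gene IARS1, at 9.82, lay below the last value.

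FARSA, the catalytic subunit of the phenylalanine enzyme, had the highest level, at 5629 per kb as the mean of 9 libraries and 4847 ± 316 (SD, n = 3) with the empty vector. Its 9 libraries ran from 4483 to 6761 per kb and did not overlap those of the next gene, SARS1 for serine, at 2385 to 2883. On this length HARS1 came next, with 730 to 1111 per kb, also clear of its neighbours. WARS1 for tryptophan, an interferon-inducible enzyme, and MARS1 for methionine followed at 536 and 376 and overlapped. MARS1 lay clear of KARS1 below it. From KARS1 down to EARS2 each gene overlapped the next, so the order of those neighbours is not resolved beyond the spread over libraries, and EARS2 lay clear of VARS2. FARSB, the other phenylalanine subunit, stood at 253 per kb on a canonical transcript of 6.76 kb. The order depends on the transcript length used. Per kb of all annotated exons together, FARSA and SARS1 stayed highest, but HARS1 was at 128 per kb, in place 8, and overlapped its neighbours.

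The lowest level was that of VARS2, the mitochondrial valine enzyme, at 3.43 per kb. Its libraries held 10.0, 12.7 and 14.4 normalised reads with the empty vector and 14.2, 7.53 and 5.85 with DDC, and with SLC6A4, from its own table, they held 14.3, 16.8 and 14.3. For VARS2 62.98% and for SARS2 48.16% of the exon bases overlap other annotated genes, mainly on the same strand, so reads of these genes cannot be assigned with certainty. MARS1 shares 13.33% of its exon bases with other genes and HARS1 8.46%, the largest partners being ARHGAP9 and WDR55 on the other strand, and the use of strand in counting is not given in the sources used here.

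Paired by amino acid, the cytosolic gene exceeded its mitochondrial counterpart in all 9 libraries in 16 of 17 pairs, EPRS1 and FARS2 each standing in more than 1 pair. The serine pair was farthest apart, SARS1 being 215-fold above SARS2, and FARSA was 58.6-fold above FARS2. HARS1 was 34.7-fold above HARS2 and MARS1 34.4-fold above MARS2. The closest pairs were CARS1 and CARS2 for cysteine, at a ratio of 1.03 with the cytosolic gene higher in 5 of 9 libraries, TARS1 and TARS2 for threonine at 1.51, and IARS1 and IARS2 for isoleucine at 1.79. The ratios depend on the transcript length used: per kb of all annotated exons together, the isoleucine pair turned to 0.418 and the tyrosine pair from 3.78 to 0.958. On that scale HARS1 was 7.20-fold above HARS2, MARS1 13.7-fold above MARS2 and FARSA 126-fold above FARS2, and the cytosolic gene was higher in 15 of the 17 pairs.

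**Figure D1:**
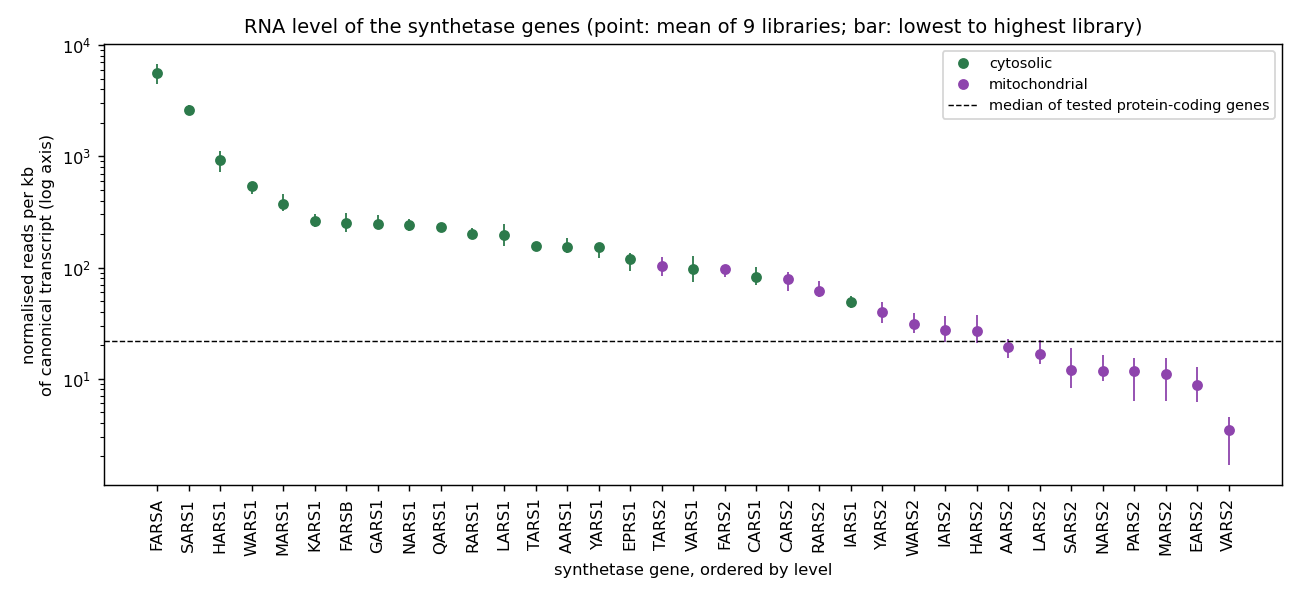
RNA level of the 35 synthetase genes in normalised reads per kb of canonical transcript on a log axis, as the mean of 9 libraries (points) with the lowest and highest library (bars), coloured by compartment, with the median of tested protein-coding genes dashed. On this length all 19 cytosolic genes lie above the dashed line at 21.9, and FARSA, SARS1 and HARS1 stand clear of the rest. Per kb of all annotated exons, HARS1 is not clear of its neighbours and IARS1 lies below the median.

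In DDC cells 3 synthetase genes rose and 1 fell relative to the empty vector. HARS1 and MARS1, both cytosolic, and TARS2, the mitochondrial threonine enzyme, rose by 0.39 to 0.52 on the log2 scale, and EPRS1, the enzyme that charges both the glutamate and the proline tRNA, fell by 0.29. All 35 genes passed the filter on low values and were tested. The 4 calls stand beside 17.4% of 13146 genes called (8.94% higher, 8.41% lower) at an adjusted p under 0.05 in the same fit (limma on log2 of normalised reads + 1, Benjamini-Hochberg over all genes). The differences of the 35 genes had a median of 0.13, beside 0.01 over all genes, and 24 were above 0.

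HARS1 held 1869, 2114 and 2116 normalised reads in the DDC libraries and 1435, 1385 and 1422 with the empty vector. Every DDC library was above every control, and the difference was 0.52 ± 0.08 (log2, SE) with an adjusted p of 4.53e-05 by limma. MARS1 held 1119, 1233 and 1265 normalised reads against 889, 938 and 892. Its groups did not overlap either, at 0.41 ± 0.08 and an adjusted p of 0.000983 by limma.

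MARS1 lies on chromosome 12 among genes that also ran high in this line: the other 78 tested genes within 2 Mb had a median difference of 0.31 in the DDC comparison, and the share of this in the MARS1 value was not tested. The 44 genes around HARS1 had a median of 0.13.

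TARS2 held 333, 277 and 315 normalised reads with DDC and 241, 237 and 225 with the empty vector. The groups were apart, at 0.39 ± 0.11 and an adjusted p of 0.0114 by limma, which became 0.0561 without DDC replicate 1. EPRS1 held 510, 546 and 446 against 586, 603 and 643. All 3 DDC libraries were lower, at -0.29 ± 0.09 and an adjusted p of 0.0354 by limma. That call is weak: leaving out any empty-vector library, DDC replicate 1 or DDC replicate 3 moved the adjusted p to between 0.0547 and 0.136, and the authors' deposited table gives EPRS1 an adjusted p of 0.0763.

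Among the 19 cytosolic genes 2 rose and 1 fell, and the median difference was 0.06. Among the 16 mitochondrial genes 1 rose, none fell, 13 estimates were above 0 and the median was 0.18. The mitochondrial genes were also measured less precisely, with a median SE of 0.16 against 0.09. Whether the compartments differed was not tested. HARS2 held 67.1, 90.3 and 78.0 normalised reads against 65.3, 49.9 and 58.3, a difference of 0.43 ± 0.17 that missed the threshold (adjusted p = 0.0858 by limma). AARS2 for alanine likewise had 3 DDC libraries above all controls, at 0.37 ± 0.15 with an adjusted p of 0.0894 by limma. In all, 11 genes had every DDC library above every control and 1 had every DDC library below, beside 33.3% of all tested genes whose groups did not overlap (17.3% higher, 16.1% lower).

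The balance of higher and lower calls over all genes depended in part on how libraries were scaled. Of all genes called in the DDC comparison, 51.5% were higher by limma and 46.5% by edgeR with TMM scaling of the recovered reads. With edgeR scaled by library size in place of TMM, 24.7% were higher and the median of all genes moved from -0.02 to -0.12. HARS1 (0.40) and MARS1 (0.28) remained called as higher and EPRS1 (-0.41) as lower under that scaling, and TARS2 kept its direction at 0.28 with an adjusted p of 0.0855 by edgeR.

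In SLC6A4 cells 6 synthetase genes rose and none fell by limma. By edgeR 6 were higher and 1 lower, with TMM as with scaling by library size. FARSA and FARSB, the subunits that together form the cytosolic phenylalanine enzyme, rose by nearly the same amount, and HARS1, VARS1 for valine and KARS1 for lysine rose with them, as did the mitochondrial MARS2. The background was 19.4% of 13264 genes called (10.2% higher, 9.28% lower). These values come from the second deposited table, which was normalised separately, so the same empty-vector libraries carry other numbers than above. The control libraries are shared by both comparisons.

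FARSB held 2062, 2045 and 2150 normalised reads in the SLC6A4 libraries and 1455, 1547 and 1567 with the empty vector. The difference was 0.45 ± 0.06 (log2, SE), with an adjusted p of 1.71e-05 by limma. FARSA held 12051, 12609 and 11572 against 9314, 9366 and 8359, a difference of 0.42 ± 0.05 with an adjusted p of 2.33e-05 by limma. For both subunits each SLC6A4 library was above each control.

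HARS1 held 2039, 1949 and 1888 normalised reads against 1506, 1460 and 1498, at 0.40 ± 0.06 and an adjusted p of 6.52e-05 by limma. VARS1 held 431, 496 and 532 against 351, 385 and 310, at 0.48 ± 0.10 and an adjusted p of 0.00157 by limma. The groups did not overlap for either gene.

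KARS1, whose enzyme charges lysine tRNA in both the cytosol and the mitochondrion, held 546, 626 and 572 normalised reads against 481, 493 and 477. The difference was 0.26 ± 0.07, with an adjusted p of 0.0188 by limma and of 0.118 without SLC6A4 replicate 2. MARS2, the mitochondrial methionine enzyme, held 31.5, 47.7 and 47.1 against 30.6, 25.7 and 19.6, at 0.71 ± 0.24 and an adjusted p of 0.0422 by limma. MARS2 is a low gene and its lowest SLC6A4 library stood just above its highest control. Its call ended without empty-vector replicate 2 or 3 or SLC6A4 replicate 2 or 3 (adjusted p 0.0737 to 0.162 by limma). The authors' deposited table gives adjusted p-values of 0.0568 for KARS1 and 0.207 for MARS2.

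Of the 6 calls, 5 were among the 19 cytosolic genes, whose median difference was 0.10, and 1 was among the 16 mitochondrial genes, whose median was 0.15. Over all 35 genes, 21 estimates were above 0 and the median was 0.10. The groups were apart in 10 genes in the higher and in 2 in the lower direction, beside 34.9% of all genes (18.5% higher, 16.4% lower). The 2 lower ones were GARS1 for glycine, at -0.22 ± 0.08 (adjusted p = 0.0578 by limma), and PARS2, the mitochondrial proline enzyme, at -0.59 ± 0.25 (adjusted p = 0.119).

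**Figure D2:**
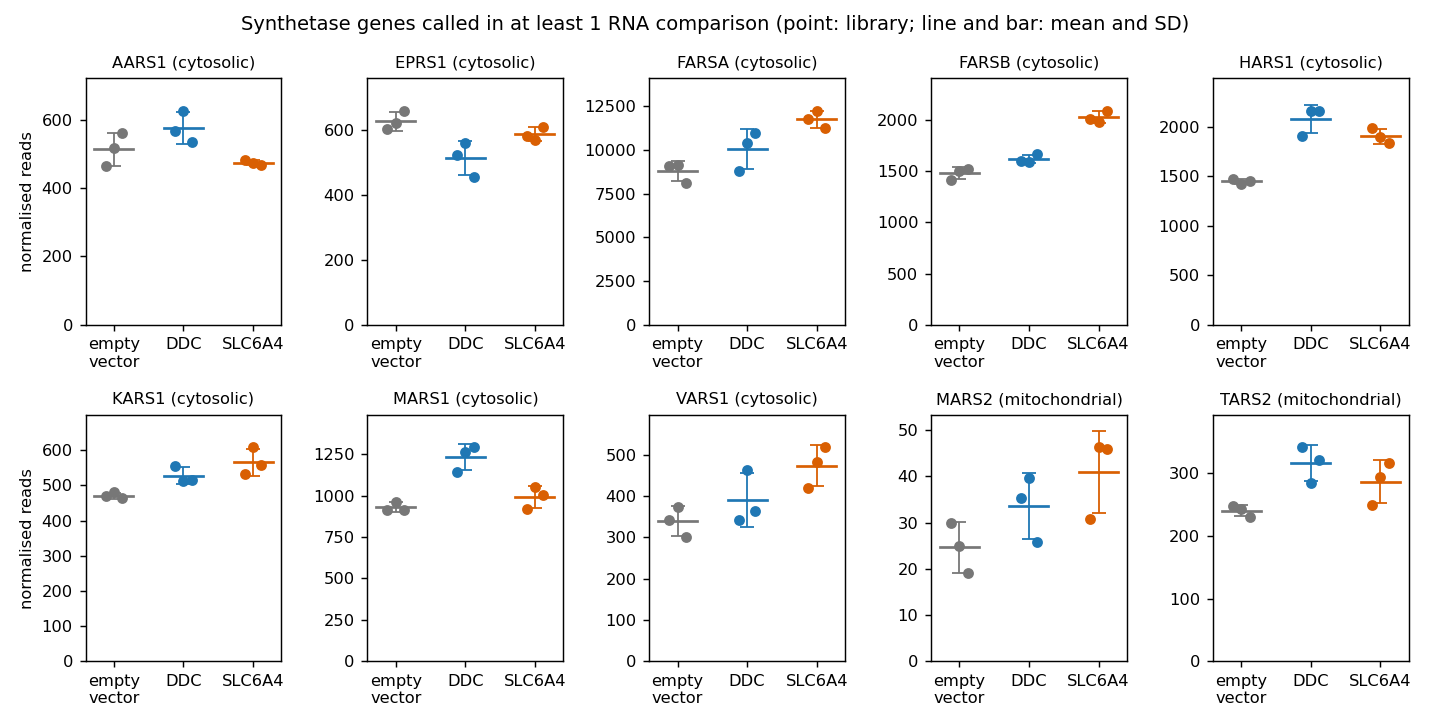
Normalised reads of the 10 synthetase genes called in at least 1 RNA comparison, on one scale for all 9 libraries (points: libraries, lines and bars: mean and SD, n = 3), in empty-vector, DDC and SLC6A4 cells. HARS1 was higher in both lines, MARS1 stood high in DDC cells and FARSB in SLC6A4 cells.

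Tested directly against each other, the lines differed in 3 synthetase genes. MARS1 and AARS1, the cytosolic alanine enzyme, were higher in DDC, and FARSB was higher in SLC6A4. The background was 13.2% of 13544 genes called (6.47% higher, 6.74% lower), on reads scaled together over the 9 libraries. FARSB held 1606, 1589 and 1669 normalised reads in DDC and 2010, 1986 and 2094 in SLC6A4, a difference of -0.32 ± 0.07 with an adjusted p of 0.00173 by limma. MARS1 held 1144, 1262 and 1291 against 919, 1052 and 1000, at 0.32 ± 0.08 and an adjusted p of 0.00705 by limma. For both genes the 2 lines did not overlap. The 81 other genes within 2 Mb of MARS1 had a median of 0.27 in this comparison too.

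AARS1 held 567, 627 and 535 normalised reads in DDC and 482, 475 and 466 in SLC6A4, at 0.28 ± 0.09 and an adjusted p of 0.0393 by limma. Neither line was called against the empty vector for AARS1, with differences of 0.17 ± 0.10 in DDC and -0.11 ± 0.08 in SLC6A4. The AARS1 call ended when any 1 library of either line other than DDC replicate 3 was left out (adjusted p 0.0653 to 0.169 by limma) and without empty-vector replicate 2 (0.0519). FARSA missed the threshold at -0.23 ± 0.08 (adjusted p = 0.0555 by limma), although each DDC library was below each SLC6A4 library. HARS1 differed between the lines by 0.12 ± 0.07, with a 95% interval of -0.02 to 0.27. No mitochondrial gene was called in this comparison, and those 16 genes had a median difference of 0.06. Over all 35 genes the groups were apart in 8 in the higher and in 7 in the lower direction, beside 28.7% of all genes (14.1% higher, 14.6% lower). Of all calls 49.0% were higher in DDC by limma and 49.6% by edgeR with TMM, against 28.6% by edgeR scaled by library size.

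**Figure D3:**
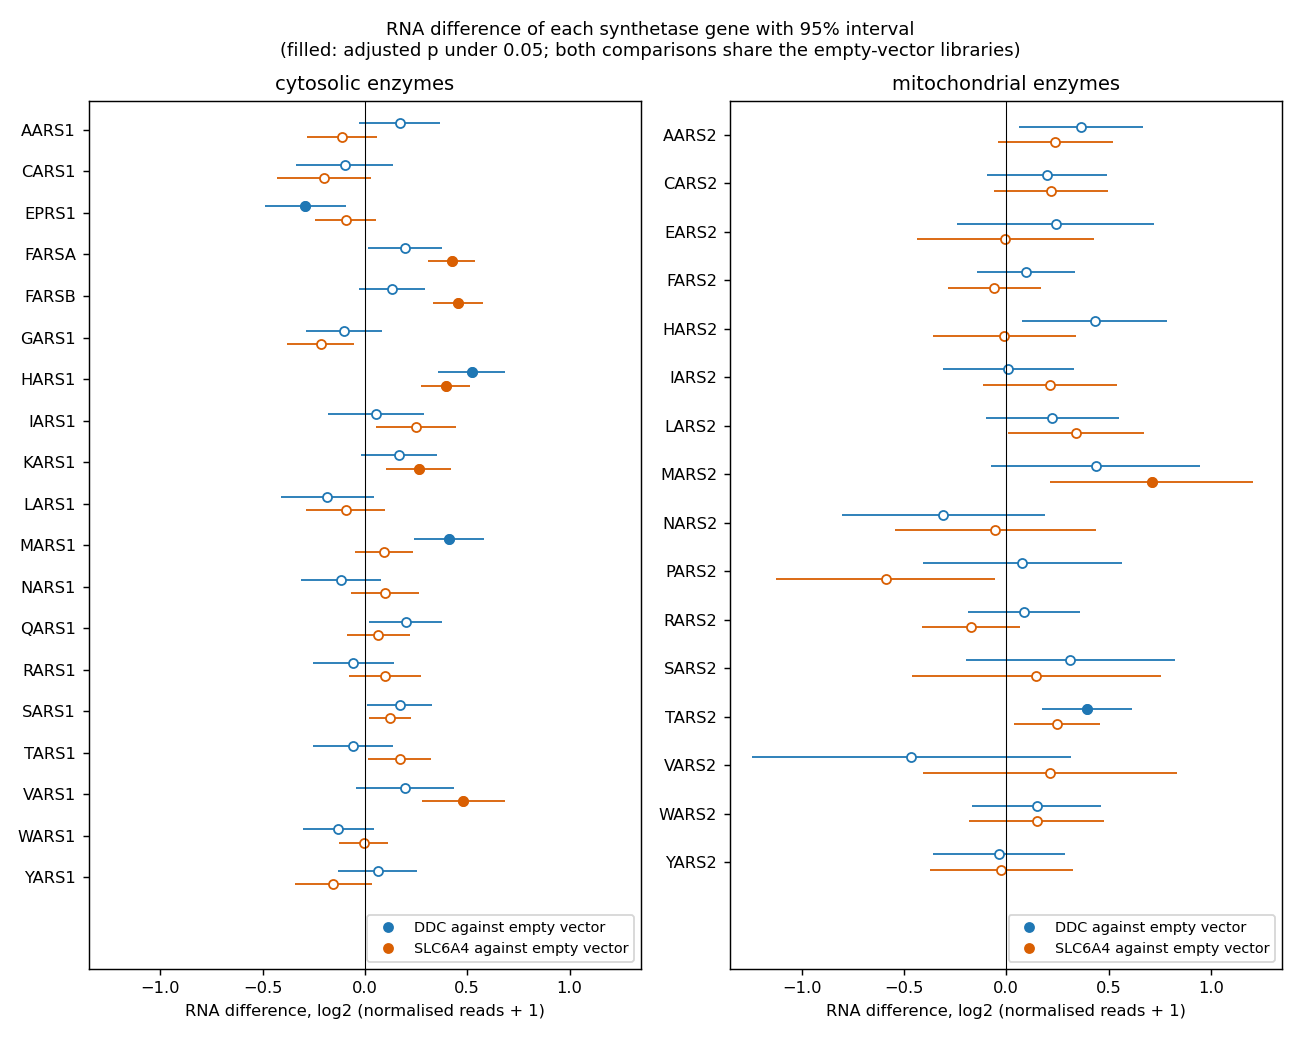
Difference from the empty vector in log2 of normalised reads + 1 for each of the 35 genes with its 95% interval, in DDC (blue) and SLC6A4 cells (orange), cytosolic and mitochondrial enzymes in separate panels; filled points passed the threshold. Both comparisons share the empty-vector libraries, and HARS1 is filled in both.

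The lists of enzyme groups and of related genes were described by counts and medians. Of all genes, 17.4% were called in DDC, 19.4% in SLC6A4 and 13.2% in the direct comparison. These shares are the background of every list count below. Of the 7 complex members, MARS1 rose and EPRS1 fell in DDC with a median of 0.05, and KARS1 rose in SLC6A4 with a median of 0.09. Of the 13 synthetases known as ATF4 targets, MARS1 rose and EPRS1 fell in DDC (median -0.06), and VARS1 rose in SLC6A4 (median -0.01). Of the 6 cytosolic synthetases not usually listed as ATF4 targets, HARS1 rose in DDC (median 0.18), and FARSA, FARSB, HARS1 and KARS1 rose in SLC6A4 (median 0.33). The median over all genes was 0.01 in each comparison. This division was made with earlier results of these data known and supports nothing by itself.

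The 6 genes with TGATGCAA in their windows were called at most 2 at a time. Of all genes, 17.4%, 19.4% and 13.2% were called in DDC, SLC6A4 and the direct comparison. In DDC 1 of them (MARS1) rose, and the 6 differences ran from -0.12 to 0.41. In SLC6A4 none was called, over a range of -0.20 to 0.25. In the direct comparison MARS1 and AARS1 were higher in DDC, and the other 4 ran between -0.23 and 0.10.

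Of the other ATF4 and amino acid response genes, 21 of 23 were tested. In DDC 4 rose and 2 fell, with a median of 0.11. The largest was the fall of DDIT4, an inhibitor of mTORC1 signalling, by 1.72 on the log2 scale, from 844, 762 and 611 normalised reads to 192, 272 and 208. STC2, a secreted glycoprotein, fell by 0.91, while the transcription factors DDIT3 and ATF5 rose by 0.59 and 0.61. In SLC6A4 1 rose (ATF5, 0.75) and 3 fell, with a median of -0.09. DDIT4 fell by 2.65, NUPR1, a stress-induced chromatin protein, by 0.99, and ATF4 itself by 0.47, from 337, 358 and 399 reads to 244, 278 and 265. Between the lines 8 were higher and 1 lower in DDC, with a median of 0.30. NUPR1 was higher in DDC by 0.99, DDIT4 by 0.92 and PHGDH, the first enzyme of serine synthesis, by 0.39, whereas STC2 was at -0.90. The highest adjusted p among these named genes was 0.00873 by limma, for ATF5 in DDC.

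The scaffold and synthetase-associated factors were split. In DDC EEF1E1 fell by 0.26 ± 0.08 (784, 734 and 809 normalised reads against 928, 912 and 952, adjusted p = 0.0289 by limma), and AARSD1, an alanyl-tRNA editing protein, rose by 0.37. In SLC6A4 AIMP2 rose by 0.37 (1155, 1161 and 1176 against 894, 978 and 840) and AARSD1 by 0.37, none of the 8 fell, and EEF1E1 was at 0.02 ± 0.06. Between the lines EEF1E1 was at -0.28 (DDC minus SLC6A4), with an adjusted p of 0.0109 by limma. AIMP1 was called in none of the 3 comparisons.

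Of 18 factors that work with the mitochondrial enzymes, 4 rose and none fell in each line, against the shared controls and beside 8.94% of all genes higher and 8.41% lower in DDC and 10.2% and 9.28% in SLC6A4. TUFM, the mitochondrial elongation factor Tu, rose by 0.36 in DDC and 0.42 in SLC6A4, and its exchange factor TSFM by 0.33 and 0.25. GATC, a subunit of the amidotransferase that makes glutaminyl-tRNA in mitochondria, rose by 0.39 and 0.29, and TRMU, which thiolates mitochondrial tRNA, by 0.38 and 0.51. The list medians were -0.02 and 0.06, and no gene of the list was called between the lines.

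Among 8 amino acid transporters, SLC3A2, the heavy chain of several exchangers, rose in both lines (0.42 in DDC, 0.18 in SLC6A4). SLC7A5, its light-chain partner for large neutral amino acids, rose in SLC6A4 by 0.43, where SLC38A2 fell by 0.31 and the glycine transporter SLC6A9 by 1.503. Of the eIF2 kinases and amino acid sensors, GCN1, which couples stalled ribosomes to the kinase GCN2, rose in DDC by 0.37. EIF2S1, the subunit of eIF2 that the stress kinases phosphorylate, and the kinase gene EIF2AK1 rose in SLC6A4 by 0.37 and 0.34. Between the lines EIF2S1 (-0.44) and the kinase genes EIF2AK4 (-0.50) and EIF2AK2 (-0.54) were lower in DDC, 3 of the 9 tested. Of 6 cytosolic elongation factors, EEF1A1 and EEF1D rose in SLC6A4 by 0.47 and 0.29 and none was called in DDC.

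WARS1 is itself induced by interferon, and it was called in no comparison, at -0.13 ± 0.08 in DDC and -0.01 ± 0.06 in SLC6A4. Of the 13 interferon response genes beside it, 2 rose in DDC (PSMB9 by 0.45, TAP1 by 0.45) and GBP2 fell by 0.99. In SLC6A4 4 rose and 2 fell, with GBP2 at -2.16, OAS1 at -0.83, ISG15 at 0.32 and TAP1 at 0.65. PSTK, which makes the intermediate for selenocysteinyl-tRNA, rose in DDC by 0.60 and was the only call among 5 genes of that pathway.

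At the promoters, 33 of the 35 genes had a ChIP region within 1000 bp of the GENCODE start. These are 32 distinct regions, because HARS1 and HARS2 share one of 38475 bp (chr5:140673845-140712319). GARS1 and MARS1 had a region only by their RefSeq start (chr7:30590894-30601706 and chr12:57486739-57493299) and stand outside the counts. CARS2 was counted by the region at its GENCODE start (chr13:110707076-110719025). That start lies 867 bp from the start of ING1 on the other strand. The RefSeq start of CARS2 fell in another region (chr13:110703312-110706952). The 19535 regions, with a median length of 4023 bp, are the authors' combined H3K4me3Q5ser peaks, so they were chosen on that mark. They held 13511040 to 24765380 H3K4me3Q5ser read pairs, 3429714 to 5811116 H3K4me3 pairs and 1394509 to 1833609 input pairs per library. Values are in CPM, the read pairs of a region relative to the TMM-scaled library total. Regions of synthetase genes were long, with a median of 9484 bp over 33 regions, both CARS2 regions included. Their H3K4me3Q5ser CPM per kb with the empty vector had a median percentile of 75.1 among all regions, and 28 of 33 lay above the median. The shares called over all regions are therefore not those of regions of like length and signal. The widest were those of VARS1 (66425 bp, 5 coding starts), HARS1 and HARS2, and FARSA (38269 bp, 4 coding starts), so a value there is not of 1 promoter alone.

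With DDC, H3K4me3Q5ser rose in 21 and fell in 5 of the 32 regions, beside 61.2% of all 19535 regions called by edgeR (29.7% higher, 31.5% lower). The median difference was 0.09, beside 0.00 over all regions. At HARS1 and HARS2 the DDC libraries held 318, 317 and 309 CPM and the controls 243, 250 and 239. That is a difference of 0.37 ± 0.02 (log2, SE; adjusted p = 2.16e-37 by edgeR) with no overlap.

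The HARS1 and HARS2 region also held more input DNA in DDC cells, with 290.1, 325.7 and 308.3 CPM against 251.9, 251.3 and 260.6. It was 1 of 2 regions called in input, both higher, beside 6.3% of 18025 regions (2.69% higher, 3.61% lower). This input difference was 0.28 ± 0.05 (adjusted p = 7.69e-05 by edgeR), and its part in the mark values was not tested. The 63 other regions within 2 Mb had a median input difference of 0.08, and the 71 other regions a median H3K4me3Q5ser difference of -0.01.

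KARS1 had 171, 167 and 173 H3K4me3Q5ser CPM against 133, 129 and 128, at 0.39 ± 0.02. Its neighbours within 2 Mb (23 regions) had a median of 0.21. Input was higher there too, with a median difference of 0.16 over 19 other regions, and its part in the KARS1 value was not tested. FARSA had 524, 530 and 518 against 447, 442 and 441, at 0.24 ± 0.01. Input at FARSA was higher as well, by 0.21 ± 0.05, and 253 other regions within 2 Mb had a median input difference of 0.23. The 263 other regions there had a median H3K4me3Q5ser difference of 0.29, above that of FARSA, and the part of the input in the mark was not tested. VARS1 had 784, 783 and 790 against 731, 720 and 715, a difference of 0.12 ± 0.01 over its wide region.

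Mitochondrial genes led the lower side. WARS2, for mitochondrial tryptophan, had 65.3, 61.3 and 69.3 H3K4me3Q5ser CPM with DDC and 83.9, 84.9 and 86.4 with the empty vector, at -0.39 ± 0.03. YARS2, for mitochondrial tyrosine, had 56.6, 54.3 and 53.4 against 67.0, 70.6 and 71.7, at -0.35 ± 0.03. The groups did not overlap in either. Input differences there were -0.17 and -0.39 and were not called. By its RefSeq start, MARS1 had 72.1, 78.6 and 76.1 against 56.5, 55.2 and 57.1, at 0.43 ± 0.03, beside a neighbourhood median of 0.26 over 120 regions. Input around MARS1 had a median difference of 0.17 over 109 other regions, and its part in the mark was not tested. GARS1, also by its RefSeq start, did not pass the threshold at -0.00 ± 0.02.

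With SLC6A4, H3K4me3Q5ser rose in 20 and fell in 8 of the 32 regions, beside 82.5% of all regions (41% higher, 41.5% lower), and the median was 0.11 beside -0.01 over all regions. VARS1 had 957, 963 and 949 CPM against 731, 720 and 715, at 0.41 ± 0.01. FARSA had 649, 643 and 636 against 447, 442 and 441, at 0.54 ± 0.01. KARS1 had 181, 177 and 183 against 133, 129 and 128, at 0.47 ± 0.02. These 3 genes were also among those whose RNA rose in this line. Over all 32 regions, however, the mark and RNA differences had the same sign at only 18.

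CARS1, for cysteine, had 89.1, 92.2 and 90.7 H3K4me3Q5ser CPM against 61.1, 55.5 and 56.7, at 0.65 ± 0.03, without a called RNA difference (-0.20 ± 0.11). AARS2 had 91.1, 88.3 and 86.6 against 65.0, 63.2 and 64.3, at 0.46 ± 0.03. WARS2 had 53.6, 52.5 and 53.3 against 83.9, 84.9 and 86.4, at -0.68 ± 0.03, the lowest value of the 32, while its RNA was at 0.15 ± 0.16. The 44 other regions within 2 Mb of WARS2 had a median of -0.48. The SLC6A4 input was not analysed here, so the DNA content of these regions in that line was not measured.

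Compared directly, the lines differed in H3K4me3Q5ser at 25 of the 32 regions, 9 higher and 16 lower in DDC, beside 76.9% of all regions (38% higher, 38.9% lower). The HARS1 and HARS2 region was higher in DDC by 0.26 ± 0.02, and NARS2, for mitochondrial asparagine, by 0.36 ± 0.03 (119, 118 and 120 CPM against 94.6, 92.8 and 90.3). Lower in DDC were CARS1 (-0.43), EARS2 for mitochondrial glutamate (-0.39), FARSA (-0.29) and VARS1 (-0.28). Scaled by library size the split turned to 15 higher and 11 lower.

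H3K4me3, sequenced less deeply, rose in 7 of the 32 regions in DDC and fell in none, beside 17.6% of 18972 regions called (8.24% higher, 9.39% lower). HARS1 and HARS2 had 214, 207 and 197 CPM against 170.3, 184 and 179, at 0.21 ± 0.04 (adjusted p = 5.11e-05 by edgeR). KARS1 had 120, 115 and 125 against 103, 103 and 99.2, at 0.24 ± 0.06 (adjusted p = 0.000377). Both differences had groups that did not overlap and were called under every alternative run. At HARS1 and HARS2 the input difference given above was larger than this H3K4me3 difference. Within 2 Mb of KARS1, 20 other regions had a median H3K4me3 difference of 0.15 and 19 a median input difference of 0.16. The part of the input and of the neighbourhood in these H3K4me3 values was not tested.

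The other 5 H3K4me3 calls in DDC were EPRS1, NARS2, TARS2, NARS1 and TARS1, at 0.13 to 0.21. EPRS1 had 132, 139 and 155 CPM against 125, 129 and 123, while its RNA was lower. NARS2 had 123, 129 and 127 against 111, 115 and 106. TARS2, which had 84.2, 75.5 and 82.0 against 65.0, 70.1 and 73.1, and NARS1, which had 78.0, 81.7 and 81.8 against 68.2, 74.5 and 67.7, were closer to the threshold. Each of these 5 lost the call with DESeq2 and on leaving out at least 1 library: EPRS1 without DDC replicate 3 (adjusted p = 0.206 by edgeR), NARS2 without empty-vector replicate 3 (0.0663), TARS2 without empty-vector replicate 1 or DDC replicate 1 or 3, NARS1 without empty-vector replicate 1 or 3 or DDC replicate 2 or 3, and TARS1 without empty-vector replicate 1 or 3 or DDC replicate 1 or 3.

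With SLC6A4, H3K4me3 rose in 14 and fell in 6 of the 32 regions, beside 61.5% of all regions (31.9% higher, 29.6% lower). FARSA had 381, 397 and 392 CPM against 301, 300 and 282, at 0.41 ± 0.03. Its 258 neighbouring regions within 2 Mb had a median of 0.62, above the FARSA value. WARS2 had 78.6, 79.2 and 87.7 against 110, 106 and 103, at -0.37 ± 0.06. The 40 other regions within 2 Mb of WARS2 had a median of -0.33, and the share of this in the WARS2 value was not tested. KARS1 had 127, 124 and 124 against 103, 103 and 99.2, at 0.30 ± 0.05, beside a median of 0.17 over 20 other regions within 2 Mb.

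VARS2 (0.32 ± 0.06), AARS2 (0.36 ± 0.07) and TARS2 (0.32 ± 0.06) completed the 6 H3K4me3 calls of smallest adjusted p in SLC6A4, each with all 3 SLC6A4 libraries above all controls. VARS2 had 93.6, 94.1 and 96.9 CPM against 81.5, 78.4 and 70.0. AARS2 had 70.7, 75.6 and 67.8 against 55.6, 54.1 and 57.0, and TARS2 had 86.7, 89.7 and 85.0 against 65.0, 70.1 and 73.1. By RefSeq start, GARS1 had 130, 142 and 139 against 172, 173 and 177, at -0.35 ± 0.05.

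Between the lines H3K4me3 differed at 16 of the 32 regions, 7 higher and 9 lower in DDC, beside 60.2% of all regions (29.3% higher, 30.9% lower). FARSA was lower in DDC, at -0.35 (308, 302 and 309.6 CPM against 381, 397 and 392). WARS2 was higher by 0.39 and NARS2 by 0.36.

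The change in H3K4me3Q5ser was tested against that in H3K4me3 as an interaction of antibody and line. In DDC 6 of the 32 regions passed, 4 higher and 2 lower, beside 15% of 19529 regions (5.15% higher, 9.88% lower). WARS2 was lower in H3K4me3Q5ser relative to H3K4me3, at -0.40 ± 0.07 (adjusted p = 1.77e-07 by edgeR): its H3K4me3 was at 0.03 while its H3K4me3Q5ser fell. CARS1 (0.34), FARSA (0.19), HARS1 and HARS2 (0.17) and VARS1 (0.15) were higher, and IARS2 was lower (-0.14). The value of HARS1 and HARS2 missed the threshold without H3K4me3 DDC replicate 3 (0.14, adjusted p = 0.0562 by edgeR), and that of IARS2 in 11 alternatives.

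In SLC6A4 9 of the 32 regions passed, 7 higher and 2 lower, beside 29.2% of all regions (14.5% higher, 14.7% lower). CARS1 was higher by 0.37, EARS2 by 0.31, VARS1 by 0.30, MARS2 by 0.28, FARSA by 0.13, and KARS1 and FARSB by 0.17 each, while WARS2 (-0.31) and TARS2 (-0.18) were lower. The TARS2 call was lost in 12 alternatives that each left out 1 library. The direction of this relative measure leans on scaling: of all regions called, 49.5% were higher, and 23.5% when scaled by library size, which moved the median of all regions from -0.01 to -0.10. The synthetase split then became 3 higher and 8 lower, and FARSA (0.04), KARS1 (0.09), FARSB (0.08) and EARS2 (0.22) no longer passed.

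**Figure D4:**
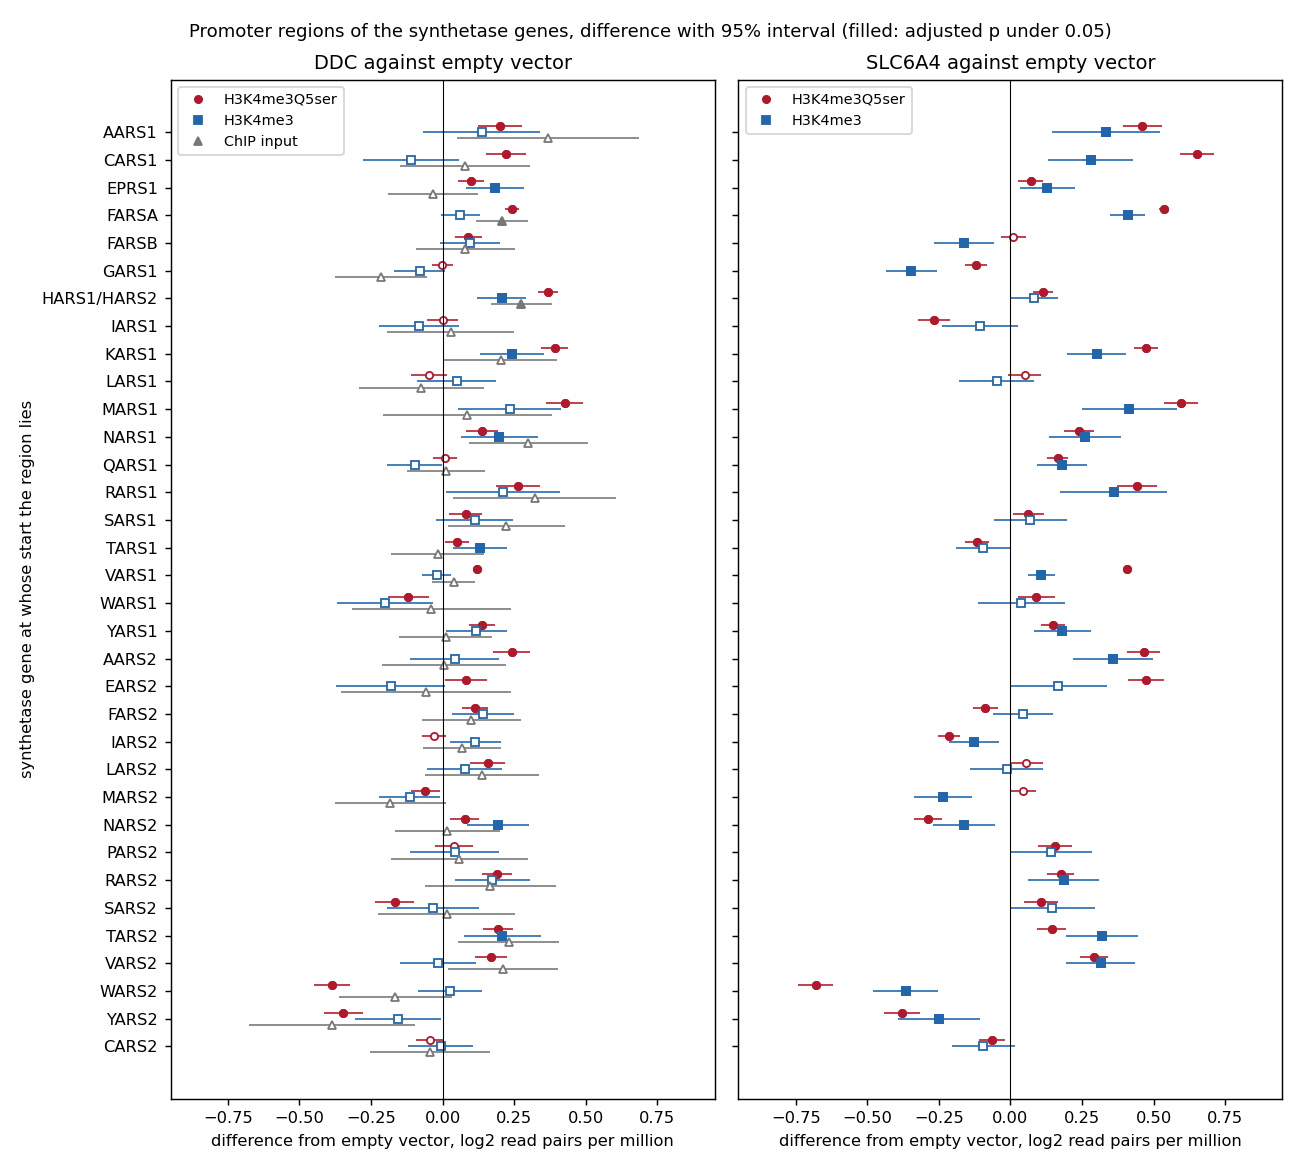
Difference from the empty vector in log2 CPM with 95% intervals for H3K4me3Q5ser (red), H3K4me3 (blue) and input (grey, DDC only) in the region of each synthetase gene, DDC left and SLC6A4 right; filled symbols passed the threshold. GARS1 and MARS1 are placed by their RefSeq start, H3K4me3Q5ser at WARS2 and YARS2 is low in both lines, and FARSA, KARS1 and CARS1 are high in SLC6A4.

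The RNA and promoter mark differences were set side by side over the 32 regions. Against the RNA difference of the same gene (HARS1 for the shared region), Pearson's r was 0.12 for H3K4me3Q5ser and -0.03 for H3K4me3 in DDC, and -0.02 and -0.17 in SLC6A4. These are descriptions over 32 points that share libraries and controls. The signs were the same at 20 and 19 regions in DDC and at 18 and 15 in SLC6A4. Input DNA, which carries no mark, had the sign of the RNA at 23 regions in DDC, with r at 0.06.

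CUT&Tag gave H3K4me3 in the authors' own CPM for single libraries, without replicates and so without a test. The values come from a table of the 13882 peaks outside the authors' list of rising peaks, and 39 such peaks lay at the starts of 30 synthetase genes. The SLC6A4 to control ratio had a median of 1.12 over these 39 and 1.07 over all, with 90% of all peaks between 0.801 and 1.23. FARSA was at 48.7 CPM in control, 59.1 in SLC6A4 and 59.1 with the TGM2 hairpin. The shared HARS1 and HARS2 peak was at 34.97, 40.7 and 39.6 CPM. After TGM2 knockdown, the ratio to SLC6A4 had a median of 0.940 over the 39 peaks and 0.944 over all. The lowest of the 39 was a WARS2 peak, at 6.66 CPM in SLC6A4 and 4.51 with the hairpin, a ratio of 0.677. It was the only 1 of the 39 below the 5th percentile of all peaks, at 0.760. The second WARS2 peak was at 0.797.

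The authors' list of rising peaks holds 2163 peaks, 13.5% of both lists together, and its contrast is not given in the sources used here. It held 4 peaks at synthetase starts, 2 at KARS1 and 1 each at CARS2 and EARS2. These GENCODE starts also lie near a gene start on the other strand. The distances are 870 bp to TERF2IP for KARS1, 867 bp to ING1 for CARS2 and 10 bp to UBFD1 for EARS2.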

How the data were processed

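RNA values are reads per gene divided by DESeq2 size factors, deposited by the authors in 1 table per line (the signal columns of each table); per the submitters' processing notes the tools were HISAT2 2.1.0, featureCounts 2.0.3 and DESeq2, with the GRCh38 build. 100.0% of values were whole multiples of 1 read (tolerance 1e-06), so whole reads were recovered (edgeR with TMM on these called 2310, 2585 and 1819 genes in DDC, SLC6A4 and the direct comparison), and the empty-vector reads were the same in both tables. Genes without a name held 4.65% to 4.98% of the reads. The authors' log2 fold changes, scores (test statistics), adjusted p-values and mean signal come from the authors' deposited tables. ChIP values are featureCounts read pairs per region as deposited, expected counts because 9.78% are not whole, and they were rounded. Per the file headers, counting was set to the reverse strand with overlapping and multi-mapped pairs shared as fractions. CUT&Tag CPM values and peak lists were used as deposited by the authors. Of the ChIP inputs, those of SLC6A4 were not analysed here, so that planned comparison was not made, and the input fit held DDC and empty vector only. CUT&Tag libraries of DDC cells with or without TG2-IN-1 were not analysed here.

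RNA was tested with limma 3.58.1 (trend) on log2 of normalised reads with a pseudocount of 1, keeping genes that reached 10 normalised reads in 3 or more libraries. A fold on this scale understates the change of low genes. DDC against SLC6A4 used the recovered reads with 1 set of size factors. ChIP was tested with edgeR 4.0.16 (quasi-likelihood, TMM, filterByExpr), the 3 lines of 1 antibody in 1 fit. All p-values were two-sided, adjusted by Benjamini-Hochberg over all features, with a threshold of 0.05. DESeq2 1.42.0 served as an alternative in R 4.3.3; summaries used Python 3.11.15 with pandas 2.3.3, and figures matplotlib 3.10.9. Gene positions came from GENCODE 44 (62625 of 62703 identifiers matched), promoter windows from RefSeq. Same-numbered libraries did not deviate together (correlations of -0.04 to 0.01 in RNA), so no replicate block was used. On simulated data with the DDC design, 36% of log2 0.4 changes and 99% of log2 1 changes among 13350 genes were recovered. Of the calls there, 6.9% were false. The changed genes were drawn only from better-covered ones, under a common dispersion, so recovery of low synthetase genes was not measured.

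Members and lists were chosen with earlier results of these data known. Values in every library are given for called members, for the member of highest or lowest level and for up to 6 called regions by adjusted p; of other lists, up to 4 called genes by adjusted p.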

Additional observations from a re-analysis of the deposited data

Results flagged for a closer look

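The effects of DDC and SLC6A4 differed, by the direct test of the lines, at 3 synthetase genes. MARS1 was higher in DDC than in SLC6A4 by 0.32 (log2), with differences from the empty vector of 0.41 in DDC and 0.09 in SLC6A4. FARSB was lower in DDC, at -0.32, with 0.13 and 0.45 from the empty vector. AARS1 was higher in DDC by 0.28, with 0.17 and -0.11. The neighbourhood values of MARS1 and the library dependence of AARS1 are given in the report.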

How the results depend on the processing

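Of the single-gene RNA results, 143 values under alternatives kept direction and side of the threshold, 22 kept the direction only, and none reversed; of the single-region ChIP results, 1779 and 107. The RNA counts of called synthetases were 4, 6 and 3 (DDC, SLC6A4, DDC against SLC6A4). Leaving out each replicate gave 3 to 4, 4 to 7 and 2 to 4. By edgeR with TMM they were 4, 7 and 3, the 7 in SLC6A4 being 6 higher and 1 lower. With edgeR scaled by library size in place of TMM, the direct comparison had 6, 1 higher and 5 lower, and the median of all genes there moved from 0.01 to -0.08. With the replicate block the RNA counts were 4, 6 and 2, where AARS1 was at an adjusted p of 0.0505 by limma, and the ChIP counts were within 1 region of those without it. Leaving out replicates gave 23 to 26, 26 to 30 and 24 to 26 regions for H3K4me3Q5ser, 5 to 9, 18 to 22 and 13 to 17 for H3K4me3, and 5 to 8 and 7 to 10 for the interaction. DESeq2 called 2 of the 7 H3K4me3 regions in DDC. With RefSeq starts, an alternative chosen after seeing the data, H3K4me3Q5ser was called in 28 and 30 regions. Lower genes are less precise: SEs of mitochondrial genes reached 0.38 in DDC.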
